A study of Mus musculus with 4 samples.

Results

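The 8 genes described here make, load, clear and break down the transmitter GABA or set the chloride gradient that its receptors use. They were taken by symbol (*Gad1*, *Gad2*, *Slc32a1*, *Slc6a11*, *Abat*, *Aldh5a1*, *Slc12a2* and *Slc12a5*), and all 8 were found once among the 56883 genes of the table. Total RNA was sequenced from tdTomato-positive cells that had been sorted by flow cytometry from the basal telencephalon of mouse embryos at E14.5, the tissue in which interneurons of the cortex are born and from which they migrate. Control embryos were *Sst-Cre/tdTomato* and *Dnmt1* KO embryos were *Sst-Cre/tdTomato/Dnmt1 loxP2*, with 2 libraries of each genotype, and each library held cells of several pooled embryos. Both groups therefore carried Cre, driven from the *Sst* locus, and the Cre-dependent tdTomato reporter, and they differed in the floxed *Dnmt1* alleles, from which Cre removes exons 4 and 5. Since each library is a pool, the p-values below rest on the spread between pooled libraries and not between single embryos. In the tests of single genes, the estimate of this spread also draws on other genes of similar mean level.

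GABA is made from glutamate by the decarboxylases GAD67 (*Gad1*) and GAD65 (*Gad2*), which need pyridoxal phosphate, and is loaded into synaptic vesicles by the transporter VGAT (*Slc32a1*). It is taken up from outside the cell by membrane transporters such as GAT-3 (*Slc6a11*), and is broken down in mitochondria by GABA transaminase (*Abat*) and succinic semialdehyde dehydrogenase (*Aldh5a1*), which return its carbon to the citric acid cycle. In immature neurons the importer NKCC1 (*Slc12a2*) keeps chloride inside the cell high, so that GABA depolarizes, and during maturation the exporter KCC2 (*Slc12a5*) lowers it.

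The genes of GABA synthesis and vesicular loading were higher in *Dnmt1* KO cells, with 1.54-fold more *Gad1*, 1.45-fold more *Gad2* and 1.56-fold more *Slc32a1*, whereas no difference was called for the genes of breakdown, for *Slc6a11* or for the chloride cotransporters. Of the 8 genes, 3 passed the test as higher, 0 as lower, and 5 did not pass. edgeR and DESeq2 gave the same counts, and 0 genes were lower at an unadjusted p below 0.05 in limma. Over all 14323 genes tested, 17.3% passed at an adjusted p below 0.05 (limma with Benjamini-Hochberg adjustment), 8.3% as higher and 8.99% as lower. The median log2 fold change was 0.03 over the 8 genes and -0.0033 over all genes tested. In 5 of the 8 genes the control and *Dnmt1* KO values did not overlap, against 57.4% of all genes tested, so a lack of overlap between 2 and 2 libraries was common in these data.

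The 3 genes that rose lie apart from each other on chromosome 2 in the GRCm39 build. *Gad1* (ENSMUSG00000070880, chr2:70383416-70432372, plus strand) has 30 annotated transcripts, *Gad2* (ENSMUSG00000026787, chr2:22511862-22583886, plus strand) spans 72.0 kb, and *Slc32a1* (ENSMUSG00000037771, chr2:158452605-158464883, plus strand) spans 12.3 kb. The 250 bases before the annotated start of each canonical transcript are shown 5′ to 3′ because these genes moved together and because DNMT1 methylates cytosines in CpG dinucleotides, each of which is in capitals.
Gad1, chr2:70391353-70391602, plus strand: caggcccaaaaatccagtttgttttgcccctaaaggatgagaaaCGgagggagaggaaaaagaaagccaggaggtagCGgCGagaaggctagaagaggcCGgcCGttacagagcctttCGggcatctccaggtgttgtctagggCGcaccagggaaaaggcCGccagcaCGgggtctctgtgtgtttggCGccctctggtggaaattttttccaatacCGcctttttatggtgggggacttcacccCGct
Gad2, chr2:22511612-22511861, plus strand: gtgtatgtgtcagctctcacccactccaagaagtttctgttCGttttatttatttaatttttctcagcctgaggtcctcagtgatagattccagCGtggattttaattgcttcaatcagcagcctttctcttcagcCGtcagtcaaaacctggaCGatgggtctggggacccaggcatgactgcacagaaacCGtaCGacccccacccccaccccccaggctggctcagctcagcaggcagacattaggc
Slc32a1, chr2:158452355-158452604, plus strand: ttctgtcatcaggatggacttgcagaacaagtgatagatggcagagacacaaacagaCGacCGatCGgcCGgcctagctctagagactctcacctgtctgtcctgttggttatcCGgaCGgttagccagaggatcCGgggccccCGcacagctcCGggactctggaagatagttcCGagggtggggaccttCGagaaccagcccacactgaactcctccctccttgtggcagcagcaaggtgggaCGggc
The windows of *Gad1* and *Slc32a1* held 12 CpG each, more than in 63.0% of 21757 protein-coding genes, and that of *Gad2* held 6, more than in 41.3%, beside a median of 8 over all of these genes. The 4 windows scanned for genes that did not pass held 14 (*Abat*), 15 (*Aldh5a1*), 16 (*Slc12a5*) and 24 (*Slc6a11*) CpG. On either strand, the homeodomain core TAATTA was in none of these 7 windows and in 5.16% of all windows, and TATAAA was also in none, against 11.9% of all. The E box CANNTG was present in 5 of the 7 windows, those of *Gad1*, *Slc32a1*, *Slc6a11*, *Aldh5a1* and *Slc12a5*, and in 64.8% of all windows. These are matches of letters, methylation of the windows was not analysed here, and the counts per gene do not separate the several start sites of *Gad1*.

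*Gad1* had 1177 and 1144 normalized counts in control cells and 1820 and 1761 in *Dnmt1* KO cells. A normalized count is the number of reads assigned to a gene divided by the size factor of its library. Both *Dnmt1* KO values lay far above both control values. The means were 1161 ± 22.9 in control and 1791 ± 41.4 in *Dnmt1* KO cells (SD, n = 2 each). On the log2 scale this was a rise of 0.63 (standard error 0.06, 95% interval 0.50 to 0.75, limma, adjusted p = 5.1e-06). Among all genes tested, 5.89% had a larger positive log2 fold change than *Gad1*.

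*Gad2*, whose product is the decarboxylase found mainly at axon terminals, was measured at 1440 and 1402 normalized counts in control and at 2000 and 2116 in *Dnmt1* KO libraries. The groups did not overlap here either, and the *Dnmt1* KO libraries differed from each other by more than the control libraries did. The means were 1421 ± 27.0 and 2058 ± 82.0 (SD, n = 2 each), a rise of 0.53 on the log2 scale (standard error 0.06, 95% interval 0.41 to 0.66, limma, adjusted p = 1.6e-05). The ratio of *Gad1* to *Gad2* counts within a library was 0.817 and 0.817 in control and 0.910 and 0.832 in *Dnmt1* KO cells. Both *Dnmt1* KO ratios were higher, by 0.09 on the log2 scale, but an exact permutation test of 2 against 2 libraries cannot give a two-sided p below 0.333, which is the value obtained. The difference rested on the first *Dnmt1* KO library, being 0.027 without it and 0.16 without the second.

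*Slc32a1*, the vesicular transporter, was measured at 1057 and 1091 normalized counts in control and at 1713 and 1629 in *Dnmt1* KO libraries. The lowest *Dnmt1* KO value was again well above the highest control value. The means were 1074 ± 24.4 and 1671 ± 59.6 (SD, n = 2 each), a rise of 0.64 on the log2 scale (standard error 0.06, 95% interval 0.50 to 0.77, limma, adjusted p = 5.9e-06). Set against the sum of *Gad1* and *Gad2*, *Slc32a1* stood at 0.404 and 0.429 in control and at 0.449 and 0.420 in *Dnmt1* KO libraries, so the ratio of loading to synthesis transcripts overlapped between genotypes.

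Part of the *Slc32a1* count is uncertain. The long noncoding RNA gene *Gm14204* runs antisense to it and shares 302 exonic bases with it. Exons of *Gm14204* also overlap the printed *Slc32a1* window. The libraries were made with a stranded kit, but whether the counting used strand is not given in the sources used here. *Gm14204* itself was measured at 643 and 668 normalized counts in control and at 944 and 836 in *Dnmt1* KO libraries and rose by 0.44 on the log2 scale (limma, adjusted p = 0.0015). *Gad1os*, which is antisense to *Gad1*, was listed at 0 in all 4 libraries.

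**Figure D1:**
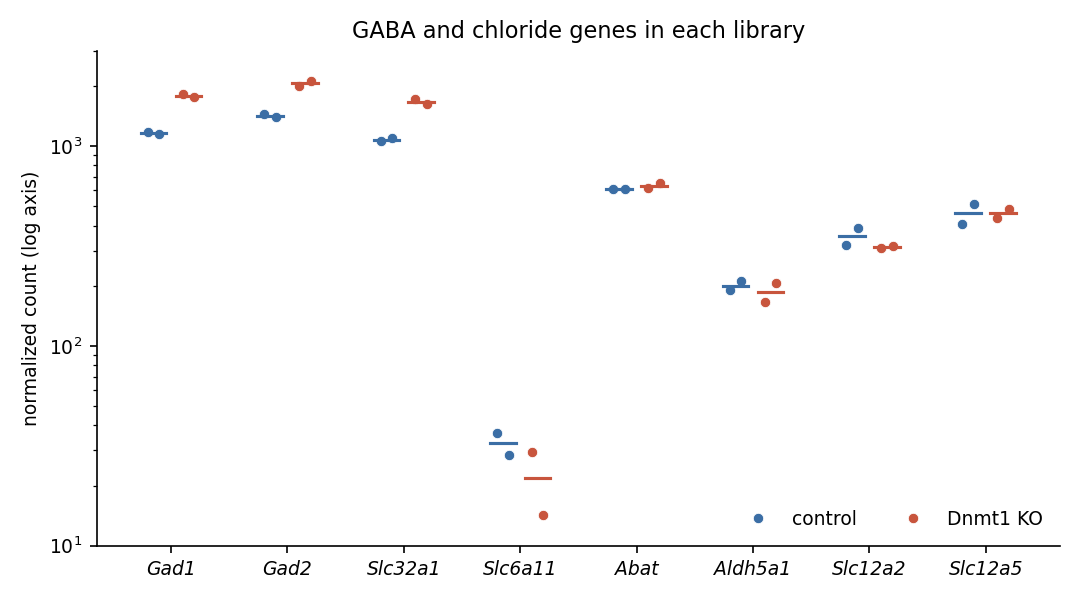
Normalized counts (log axis) of the 8 genes in each of the 4 libraries. Points are libraries, lines are group means, blue is control and red is *Dnmt1* KO. For *Gad1*, *Gad2* and *Slc32a1* both red points lie above both blue points, while *Slc6a11* lies between 14.2 and 36.7, far below the other genes.

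*Slc6a11*, whose GAT-3 protein is known mainly from astrocytes, was low, with 36.7 and 28.6 normalized counts in control and 29.6 and 14.2 in *Dnmt1* KO libraries, which correspond to 41, 28, 30 and 13 reads. The genotypes overlapped. The estimated log2 fold change of -0.63 had a standard error of 0.39, and its 95% interval, from -1.46 to 0.19, left room for a large fall as well as for a small rise (limma, adjusted p = 0.30).

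*Abat*, which encodes GABA transaminase, was measured at 611 and 613 normalized counts in control and at 617 and 650 in *Dnmt1* KO libraries. The values lay close together in all 4 libraries, and although they did not overlap, the log2 fold change of 0.05 had a 95% interval from -0.12 to 0.22 (limma, adjusted p = 0.73). *Aldh5a1*, the dehydrogenase of the following step, was measured at 190 and 210 normalized counts in control and at 166 and 207 in *Dnmt1* KO libraries. These values overlapped, with a log2 fold change of -0.11 and a 95% interval from -0.41 to 0.19 (limma, adjusted p = 0.66). For both enzymes of breakdown, the upper bound of the interval lay below the lower bounds for *Gad1*, *Gad2* and *Slc32a1*.

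The ratio of *Abat* to the sum of *Gad1* and *Gad2* within a library compares breakdown with synthesis without regard to library scaling. It was 0.234 and 0.241 in control and 0.162 and 0.168 in *Dnmt1* KO libraries. The *Dnmt1* KO ratios were both lower, by 0.53 on the log2 scale (exact permutation p = 0.333, two-sided, the smallest that 2 against 2 libraries allow).

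*Slc12a2*, which encodes the chloride importer NKCC1, was measured at 320 and 391 normalized counts in control and at 310 and 315 in *Dnmt1* KO libraries. The *Dnmt1* KO values were the 2 lowest, yet the gap to the lower control value was smaller than the distance between the control libraries. The log2 fold change was -0.18 with a 95% interval from -0.42 to 0.06 (limma, adjusted p = 0.31). *Slc12a5*, which encodes the exporter KCC2, was measured at 409 and 516 normalized counts in control and at 439 and 482 in *Dnmt1* KO libraries, so that both *Dnmt1* KO values lay between the control values. Its log2 fold change was 0.0022 with a 95% interval from -0.23 to 0.24 (limma, adjusted p = 0.99), and its sign changed with the analysis settings. *Slc12a5* shares 281 exonic bases with the antisense gene *Ncoa5*, a nuclear receptor coactivator gene measured at 1236 and 1277 normalized counts in control and at 1359 and 1433 in *Dnmt1* KO libraries.

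The count ratio of exporter to importer, *Slc12a5* to *Slc12a2*, was 1.28 and 1.32 in control and 1.42 and 1.53 in *Dnmt1* KO libraries. Both *Dnmt1* KO ratios were higher, by 0.18 on the log2 scale (exact permutation p = 0.333, two-sided, again the smallest possible), and neither gene passed the test alone.

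**Figure D2:**
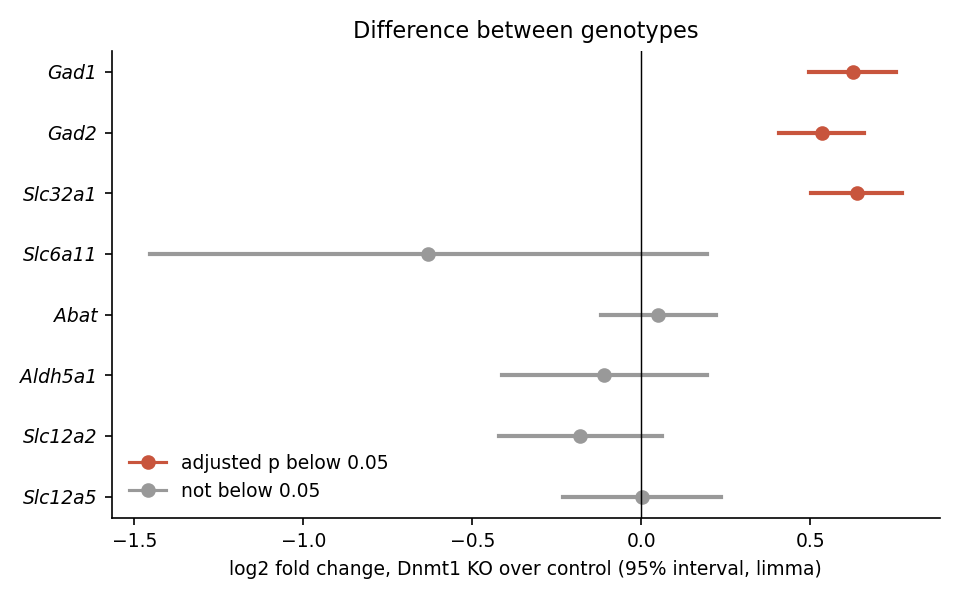
Log2 fold change of *Dnmt1* KO over control with its 95% interval from limma for the 8 genes. Red marks genes with an adjusted p below 0.05. The intervals of *Gad1*, *Gad2* and *Slc32a1* lie above 0, the other intervals include 0, and that of *Slc6a11* is the widest.

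Levels of different genes were compared per kilobase of the annotated transcript with the longest coding sequence. In control cells *Slc32a1* was highest at 373 ± 8.47 normalized counts per kb, followed by *Gad1* at 277 ± 5.45 and *Gad2* at 230 ± 4.37 (SD, n = 2 each). *Slc12a5* followed at 129 ± 21.1 and *Abat* at 116 ± 0.18 normalized counts per kb, and this pair overlapped. Lower still were *Slc12a2* at 43.8 ± 6.15, *Aldh5a1* at 35.1 ± 2.56 and *Slc6a11* at 7.89 ± 1.39 normalized counts per kb. The order was the same in *Dnmt1* KO cells, from 580 ± 20.7 for *Slc32a1* to 5.30 ± 2.63 for *Slc6a11*, and *Slc12a5* and *Abat* were again the neighbours that overlapped. The place of *Slc12a5* depends on the transcript. Its longest transcript has 6812 bases against 3574 in the one used above. With the longest transcript it stood at 67.9 normalized counts per kb in control cells, below *Abat*.

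Markers of the sorted cells and of other cells in this tissue moved with genotype beside these results. Of 15 markers of medial ganglionic eminence interneurons, 14 rose, and their summed level went from 25576 and 25675 normalized counts in control to 39559 and 40100 in *Dnmt1* KO libraries. *Sst*, the most abundant of them and the gene that drives Cre, went from 5580 and 5963 to 8303 and 7825 normalized counts, a log2 fold change of 0.48 (limma, adjusted p = 4.9e-06), and *Cxcr4* was the least abundant. The summed markers of radial glia, led by *Vim*, went from 11756 and 11913 to 7215 and 7500 normalized counts (8 of 10 lower, and *Sox2* higher), and those of cycling cells, led by *Mki67*, from 7307 and 7140 to 5201 and 5220 (9 of 10 lower).

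Markers of excitatory neurons, led by *Tbr1*, went from 3193 and 3293 to 1829 and 1666 normalized counts in sum (8 of 10 lower), and those of the lateral ganglionic eminence and striatum, led by *Meis2*, from 3282 and 3489 to 2505 and 2419 (5 of 9 tested lower, and *Tac1* higher). Blood markers, led by the globin gene *Hba-a2*, went from 2250 and 2075 to 486 and 457 (7 of 7 tested lower), and vascular, meningeal and microglial markers, led by *Kdr*, from 795 and 860 to 347 and 375 (9 of 11 tested lower). Astrocyte and oligodendrocyte markers, led by *Gja1*, summed to 385 and 330 in control and to 253 and 225 in *Dnmt1* KO libraries (1 of 6 tested lower), and *Gfap* was at 0 in all libraries. The part of these shifts in the results for the 8 genes was not tested, and in bulk samples fewer cells of a type and less RNA per cell cannot be told apart. *Dnmt1* itself was measured at 2238 and 2341 normalized counts in control and at 2164 and 2210 in *Dnmt1* KO libraries (log2 fold change -0.07, limma, adjusted p = 0.46), a count over the whole gene that includes transcripts lacking the deleted exons and so does not check the labels.

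Set against the summed interneuron markers of the same library, *Gad1* and *Slc32a1* overlapped between genotypes, but against *Sst* alone they did not. The marker sum was 0.64 higher in *Dnmt1* KO cells on the log2 scale, so division by it lowered every gene alike, and the median over all genes tested became -0.64. *Gad1* amounted to 4.60% and 4.46% of the summed counts of the 15 markers in control and to 4.60% and 4.39% in *Dnmt1* KO libraries, and *Slc32a1* to 4.13% and 4.25% against 4.33% and 4.06%. Both overlapped between genotypes, with differences of -0.01 and 0.00081 on the log2 scale. *Gad2* amounted to 5.63% and 5.46% against 5.06% and 5.28%, a difference of -0.10 without overlap.

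The other 5 genes were, like *Gad2*, lower in both *Dnmt1* KO libraries than in either control library on this scale, as were 86.1% of all genes tested, so their lower place says nothing particular about them. *Abat* went from 2.39% and 2.39% of the marker sum to 1.56% and 1.62%, and *Slc12a5* from 1.60% and 2.01% to 1.11% and 1.20%. Their differences of -0.59 and -0.63 on the log2 scale lay close to the median of all genes. For *Aldh5a1*, *Slc12a2* and *Slc6a11* the differences were -0.75, -0.82 and -1.27. Against *Sst* alone, 78.5% of all genes tested were lower in both *Dnmt1* KO libraries, and the median of all genes tested was -0.49. The differences were 0.14 for *Gad1*, 0.15 for *Slc32a1*, -0.43 for *Abat* and -0.48 for *Slc12a5*. *Gad1* amounted to 21.1% and 19.2% of *Sst* in control and to 21.9% and 22.5% in *Dnmt1* KO libraries, without overlap. *Slc32a1* did not overlap either, at 18.9% and 18.3% against 20.6% and 20.8%, while *Gad2* overlapped. These ratios were chosen after the data were seen, and no test was drawn from them.

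**Figure D3:**
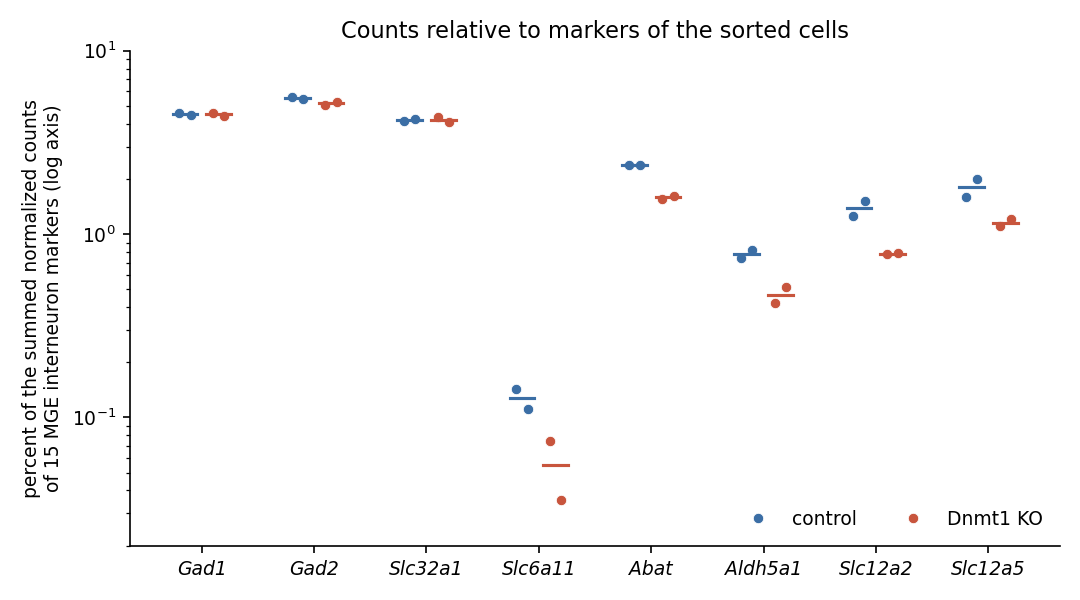
Normalized count of each gene as a percent of the summed normalized counts of 15 interneuron markers in the same library (log axis). Points are libraries, lines are group means, blue is control and red is *Dnmt1* KO. Red and blue points of *Gad1* and *Slc32a1* lie together near 4.1% to 4.6%, while both red points of *Abat*, *Aldh5a1*, *Slc12a2*, *Slc12a5* and *Slc6a11* lie below the blue points, as did 86.1% of all genes tested.

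Most genes of other routes of GABA transport and metabolism were too low to test. Of 9 genes, 3 were tested, and the transporter gene *Slc6a12* was at 0 in all libraries and *Slc6a13* did not exceed 1.09 normalized counts. Of 11 tested genes of glutamate and glutamine supply, 2 fell and none rose, with a list median of 0.04 on the log2 scale. These were the glutamate transporter genes *Slc1a3* and *Slc1a2*, known from glia, with log2 fold changes of -0.80 (limma, adjusted p = 0.0017) and -0.38 (limma, adjusted p = 0.0036). *Slc1a3*, measured at 311 and 330 normalized counts in control and at 153 and 220 in *Dnmt1* KO libraries, is also on the list of radial glia markers.

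The genes that supply the GAD cofactor had a median of 0.22, and 0 of 4 passed by limma, edgeR or DESeq2, with 1 at an unadjusted p below 0.05. In 6 of 16 alternatives 1 of them passed as higher, among them limma without the second control library or without the first *Dnmt1* KO library. The pyridoxal kinase gene *Pdxk*, named here after its value was seen, was measured at 77.9 and 106 normalized counts in control and at 124 and 143 in *Dnmt1* KO libraries (log2 fold change 0.55, limma, adjusted p = 0.058). Of 10 genes of the citric acid cycle around the entry point of the GABA shunt, 1 fell, and the list median was -0.16. This was *Suclg2*, a subunit of succinate-CoA ligase, at 74.3 and 64.3 normalized counts in control and 34.5 and 27.3 in *Dnmt1* KO libraries (log2 fold change -1.14, limma, adjusted p = 0.0068), a call lost without the first control library (adjusted p = 0.081) and by DESeq2 (adjusted p = 0.083), with a range of 0.00067 to 0.083 over all alternatives.

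For the genes around the chloride cotransporters, the share to compare with is the 17.3% of all genes tested that passed. Of 11 tested genes of other chloride and bicarbonate transport, 1 rose, the anion exchanger gene *Slc4a3* (log2 fold change 0.30, limma, adjusted p = 0.034), which did not pass without either control library or without the second *Dnmt1* KO library (limma, adjusted p = 0.16, 0.0501 and 0.17), nor by DESeq2 (0.24, range 0.019 to 0.24 over all alternatives).

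Of 8 tested kinases and partners of the cotransporters, 1 rose and 1 fell. *Neto2*, whose product binds kainate receptors and KCC2, went from 740 and 762 to 928 and 931 normalized counts (log2 fold change 0.31, limma, adjusted p = 0.0074), but the log2 fold change was -0.04 once smooth trends with GC content and transcript length had been taken out. DESeq2 gave an adjusted p of 0.052 for *Neto2*, within a range of 0.0022 to 0.76 over all alternatives. *Stk39*, which encodes the kinase SPAK that phosphorylates the cotransporters, went from 310 and 291 to 207 and 235 normalized counts (log2 fold change -0.44, limma, adjusted p = 0.017), and did not pass without either control library or without the first *Dnmt1* KO library (limma, adjusted p = 0.10, 0.051 and 0.10), nor by DESeq2 (0.16, range 0.0046 to 0.16 over all alternatives).

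On the vesicle side, 0 of 14 subunit genes of the proton pump that energizes transmitter loading passed by limma, with a median of 0.04 and 3 at an unadjusted p below 0.05. edgeR called 1 of them as higher and DESeq2 called 0, and 3 were called higher once trends with length and GC content had been taken out. Their log2 fold changes lay between -0.14 and 0.22. Of 4 tested vesicular transporters of other transmitters, the glutamate transporter gene *Slc17a6* fell, from 216 and 254 to 84.8 and 113 normalized counts (log2 fold change -1.25, limma, adjusted p = 9.4e-05). *Slc17a7*, at 41.2 and 24.5 against 13.8 and 24.0 normalized counts, did not pass.

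Among all genes tested, 8.3% passed as higher, 8.99% passed as lower and 57.4% did not overlap between genotypes. Of the 26 genes of the synaptic vesicle cycle, 17 were higher and 1 lower, with a median of 0.27, and 23 did not overlap between genotypes. The number higher was 11 without the first control library, 12 without the second *Dnmt1* KO library, 11 by DESeq2, 12 after quantile normalization and 0 in limma without the variance trend. *Pclo*, a scaffold of the presynaptic active zone, went from 2548 and 2461 to 3768 and 3729 normalized counts (log2 fold change 0.58, limma, adjusted p = 1.4e-06), and *Syt1*, the calcium sensor of release, from 1706 and 1612 to 2258 and 2414 (log2 fold change 0.49, limma, adjusted p = 3.7e-05). *Sv2b*, which encodes a vesicle membrane protein, at 52.8 and 62.3 against 26.6 and 21.9 normalized counts, was the one that fell (log2 fold change -1.22, limma, adjusted p = 0.0084), and it did not pass without the second control library (limma, adjusted p = 0.099) or by DESeq2 (0.10, range 0.0013 to 0.10 over all alternatives). No test of any list against other genes was made.

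**Figure D4:**
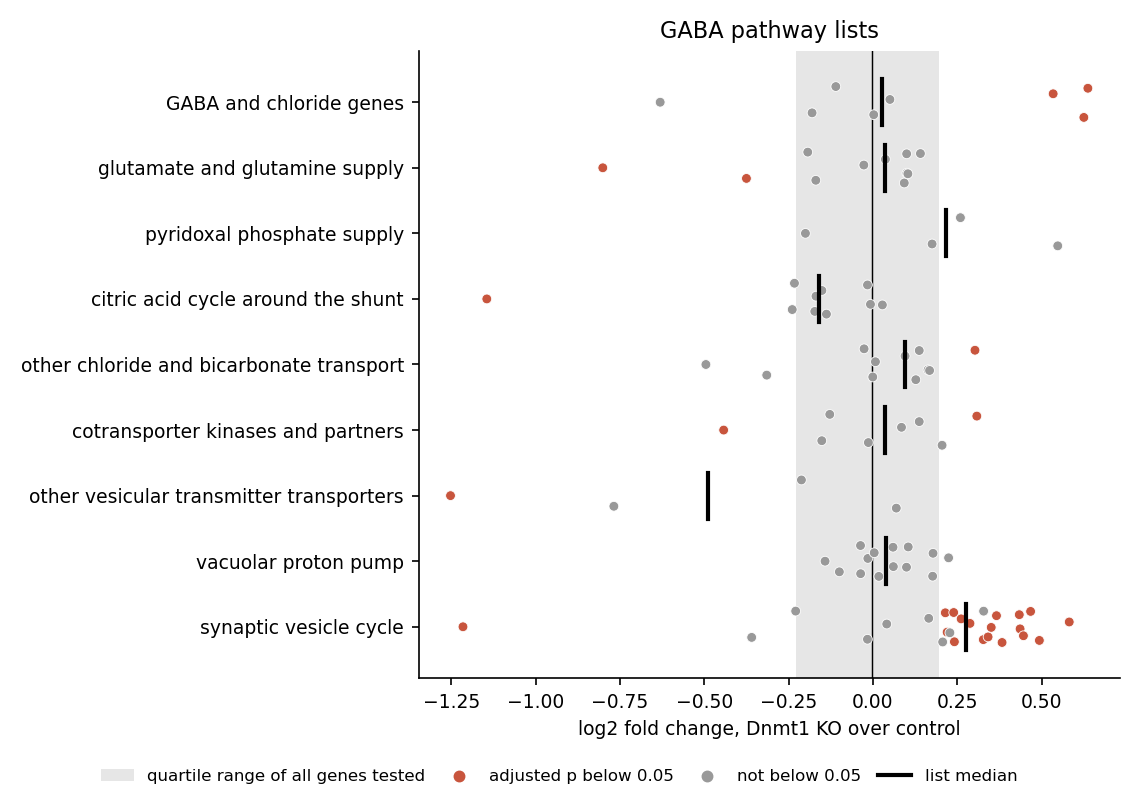
Log2 fold changes of *Dnmt1* KO over control for the tested genes of the 8 genes and of 8 further lists. Each point is a gene, red points had an adjusted p below 0.05, black bars are list medians, the thin vertical line is the median of all genes tested and the grey band spans their quartiles. Points of the synaptic vesicle cycle gather around 0.27, and those of the vacuolar proton pump lie between -0.14 and 0.22.

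Among 8417 genes with a mean of at least 100 normalized counts, those whose values over the 4 libraries were most like *Gad1* were sought by the root mean square difference of centred log2 values. The nearest was *Dlx6os1*, a long noncoding RNA of the *Dlx5* and *Dlx6* locus, at 1269 and 1257 normalized counts in control and 1997 and 1869 in *Dnmt1* KO libraries (difference 0.02). It overlaps *Dlx6* on the opposite strand, so its count is uncertain. It was followed by *Dlgap1* and *Pclo*, which encode scaffold proteins of the synapse, *Tab3*, which encodes a kinase adaptor, and *Grin2b*, an NMDA receptor subunit gene, with differences from 0.021 to 0.026. Of the GABA genes, *Slc32a1* ranked 13 and *Gad2* 63 in likeness to *Gad1*. With 4 libraries this measure reflects little more than the size of the genotype difference and the spread within each pair.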

How the data were processed

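Total RNA of sorted tdTomato-positive cells was sequenced in 2 control and 2 *Dnmt1* KO libraries, grouped by their labels. The authors used Trim Galore for trimming, STAR for alignment to GRCm39, Salmon for quantification and DESeq2 for normalization. The deposited signal is this normalized count per gene and library. All 89965 values above 0 (100%) were whole reads times 1 factor per library (within 1e-04 of a read). Recovered reads totalled 6970247 to 8376711 per library. rRNA had been depleted after amplification, and whether copies of a molecule were collapsed is not given in the sources used here.

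The 14323 of 56883 genes averaging 10 or more normalized counts were tested on log2(normalized count + 1) by limma 3.58.1 (R 4.3.3, lmFit and eBayes with a variance trend) with genotype as the term and Benjamini-Hochberg adjustment over all of them. Fold changes on this scale understate changes of low genes. Ratios were compared by exact two-sided permutation over libraries. Positions, lengths, overlaps and sequences came from the GENCODE annotation and genome of GRCm39, with promoters of 21757 protein-coding genes as background. The steps were tested on simulated data.

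Named are the 8 genes, up to 2 risen and 2 fallen called genes of each pathway list, *Dnmt1*, *Sst*, the 5 genes most like *Gad1* and the most and least abundant markers of cell type lists. The least abundant were *Cxcr4*, *Hopx*, *Aurkb*, *Slc17a7*, *Drd1*, *Gfap* and *Aif1*. A few genes that the rule names are not reported here. The genes, lists and tests were chosen with earlier results of these data known. Alternatives were a pseudocount of 0.5 or 10, a minimum of 1 or 50, TMM factors, quantile normalization, no variance trend, edgeR 4.0.16, limma-voom and, on all 28067 genes with a read, DESeq2 1.42.0 (all 3 on recovered reads), removal of length and GC trends (spline with 5 degrees of freedom), a replicate block, the longest transcript, and each library left out, where limma assumes that a lone library varies like the others. edgeR called 2528 genes, limma-voom 2496 and limma 2476. Other assays of the study were not analysed here.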

Additional observations from a re-analysis of the deposited data

How the results depend on the processing

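*Gad1*, *Gad2* and *Slc32a1* remained higher with an adjusted p below 0.05 under each alternative except limma without the variance trend, where their log2 fold changes of 0.63, 0.53 and 0.64 had adjusted p = 0.071, 0.082 and 0.071, the highest over their alternatives. In that fit 0 of the 8 genes, 0 genes of the other lists and 0 of 14323 genes passed (3339 had an unadjusted p below 0.05), against 3, 28 and 2476 in limma with the trend. DESeq2 called 1176 genes, 17 of them on the other lists. With one library left out, 1525 to 2205 genes passed (1648 without the first and 1525 without the second control library), 21 to 28 on the other lists and 3 to 3 of the 8 genes. The leave-one-out ranges of the log2 fold change were 0.60 to 0.65 for *Gad1*, 0.49 to 0.57 for *Gad2*, 0.60 to 0.67 for *Slc32a1*, -1.14 to -0.13 for *Slc6a11*, 0.01 to 0.09 for *Abat*, -0.27 to 0.05 for *Aldh5a1*, -0.32 to -0.04 for *Slc12a2* and -0.16 to 0.17 for *Slc12a5*. The sign of *Aldh5a1* turned (0.048) without the first *Dnmt1* KO library, and that of *Slc12a5* without the first control library (-0.16) or the second *Dnmt1* KO library (-0.06), after quantile normalization (-0.0060), by edgeR (-0.0013) and by DESeq2 (-0.0046). Removal of length and GC trends turned *Neto2* (-0.042) and *Dnmt1* (0.018). *Slc6a11* had no value at a minimum of 50. The ratios of *Gad1* and *Gad2* to markers turned with *Sst* alone as the reference (0.14 and 0.051). With the longest transcript, *Slc32a1* stood at 349, *Gad1* at 261, *Abat* at 109, *Slc12a5* at 67.9 and *Aldh5a1* at 23.2 normalized counts per kb in control cells. The cause of these changes was not tested.

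Deviations of libraries with the same replicate number had a correlation of -0.08. With 2 libraries per group both pairs give the same value by construction. Taken over genes, this correlation showed no shared deviation of same-numbered libraries, but it does not settle whether the libraries were paired. With the replicate number as a block, 2957 genes passed, and 3 of the 8.

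Each SD rests on 2 libraries. At 13 to 41 reads per library, the log2 fold change of -0.63 in *Slc6a11* did not pass (limma, adjusted p = 0.30).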
